A study of Saccharomyces cerevisiae with 6 samples.

Results

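The genes described here are 8 genes of sterol uptake, sterol regulation and sterol storage in budding yeast (Saccharomyces cerevisiae), out of 6205 genes with a row on the array. They were chosen by function, as the systematic reading frames of AUS1, PDR11, HES1, UPC2, ECM22, SUT1, ARE1 and ARE2. All 8 had a value in every condition, as did 6151 genes in all. The choice was made with earlier results of these data known, in which AUS1 and HES1 stood among the highest genes late after loss of the mitochondrial genome (mtDNA). Their values in all 6 conditions are therefore a description, and no test is given for them.

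The study followed transcript levels after cells lost mtDNA or after expression of NAR1 was shut off. NAR1 is an essential gene of the cytosolic machinery that builds iron-sulfur clusters. Wild-type (WT) cells of strain UCC1899 were cured of mtDNA by ethidium bromide, which intercalates into DNA (6 h at 30 µg/ml), and were compared 3, 11, 19 and 27 h afterwards with WT cells whose mtDNA was intact. Cells of strain UCC3980, homozygous for the ATP1-111 allele of the mitochondrial ATP synthase alpha subunit gene, were treated the same way and compared at 27 h with ATP1-111 cells with intact mtDNA. In strain UCC3970, cells moved from 50 to 2 nM estradiol, which represses NAR1 there, were compared after 27 h with cells kept in 50 nM estradiol. All cultures grew in YEPD, a rich glucose medium, at an optical density of at most 1. The labels do not say whether the control cells saw ethidium bromide, nor whether each result rests on more than a single clone of a strain.

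Yeast makes ergosterol when oxygen is present, and its synthesis needs both oxygen and haem. Cells that lack either take sterol up from the medium instead, through the ABC transporters Aus1 and Pdr11 in the plasma membrane. The zinc cluster factors Upc2 and Ecm22 bind sterol regulatory elements and activate sterol genes when sterol is low, and Sut1 is a regulator that promotes sterol uptake. Surplus sterol is esterified by the acyltransferases Are1 and Are2 and stored in lipid droplets, while oxysterol-binding proteins such as Hes1 carry lipids between membranes.

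Each condition was deposited as a single ratio per gene, treated over control, which the authors had averaged over 6 two-colour arrays (3 biological replicates, each dye-swapped) or, for ATP1-111, over 5. No replicate values came with these averages, so no ratio below has a replicate error. The only measure of precision was the 13 genes with 2 spots, whose single-spot SD lay between 0.151 and 0.239 on the log2 scale depending on the column. None of the 8 genes had 2 spots, and this SD leaves out the spread between cultures. The number of arrays limits the precision. The median ratio over all genes lay between 0.96 and 1.02. As a check of the labels, the NAR1 ratio was 0.031 under repression and lay between 0.979 and 2.25 in the other conditions. The array had no rows for mtDNA-encoded genes, so loss of mtDNA could not be checked. A ratio from a whole culture cannot tell more transcript per cell from a larger share of cells that carry it.

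Of the importers, AUS1 was far above its control late after mtDNA loss in WT cells and PDR11 was not. AUS1 had ratios of 1.06 at 3 h, 1.03 at 11 h, 4.56 at 19 h and 15.4 at 27 h in WT cells. It had a ratio of 1.30 in ATP1-111 cells and 0.746 under NAR1 repression. The early WT values were close to 1, the late ones far above it, and the ratio was at or below 1.30 in both other strains. On the log2 scale AUS1 changed by -0.05 between 3 and 11 h, by 2.14 between 11 and 19 h and by 1.75 between 19 and 27 h. At 27 h in WT it had the rank 9 from the top among 6151 genes, against rank 2526 at 11 h. It had rank 251 in ATP1-111 cells and rank 5197 under NAR1 repression. In ATP1-111 cells its log2 ratio of 0.38 lay above the 95th percentile of that column, 0.34.

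PDR11, which encodes the second importer, had ratios of 0.979, 1.16, 1.52 and 1.33 at 3, 11, 19 and 27 h in WT cells. It had a ratio of 1.22 in ATP1-111 cells and 0.808 under NAR1 repression. Its highest value was at 19 h, and the step down from there to 27 h was -0.19 on the log2 scale, within the single-spot SD. Within the same arrays the log2 ratio of AUS1 minus that of PDR11 was 0.12 at 3 h, -0.17 at 11 h, 1.59 at 19 h and 3.53 at 27 h. In ATP1-111 cells and under NAR1 repression this difference was 0.09 and -0.12. The importer transcripts thus parted in WT cells between 11 and 19 h and lay within the single-spot SD of each other in the other strains.

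HES1, an oxysterol-binding protein gene, had ratios of 1.08, 1.09, 2.93 and 13.6 at 3, 11, 19 and 27 h in WT cells. Its ratio was 2.97 in ATP1-111 cells and 1.01 under NAR1 repression. Its largest step in WT came between 19 and 27 h (2.22 on the log2 scale, against 1.43 between 11 and 19 h), whereas for AUS1 and UPC2 the step from 11 to 19 h was the larger. HES1 was the single member that was at least 2-fold higher in ATP1-111 cells, where its log2 ratio of 1.57 was within the single-spot SD of its WT value at 19 h (1.55). KES1, its close paralogue, had a ratio of 0.684 at 27 h in WT and 0.907 in ATP1-111 cells. The log2 ratio of HES1 minus that of KES1 was 0.12 at 3 h and 4.32 at 27 h in WT, 1.71 in ATP1-111 cells and 0.37 under NAR1 repression.

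Among the regulators, UPC2 had ratios of 1.33, 1.52, 3.80 and 6.73 at 3, 11, 19 and 27 h in WT cells. Its ratio was 1.33 in ATP1-111 cells and 0.723 under NAR1 repression. It was above 1 from the first time point, and its value in ATP1-111 cells at 27 h was equal to that of WT cells at 3 h. UPC2 changed by 1.32 on the log2 scale between 11 and 19 h and by 0.82 between 19 and 27 h. It had the rank 31 from the top at 27 h in WT and the rank 221 in ATP1-111 cells.

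ECM22, the paralogue of UPC2, had ratios of 1.42, 1.36, 1.64 and 1.69 in the 4 WT columns in order of time. Its ratio was 1.08 in ATP1-111 cells and 0.787 under NAR1 repression. All 4 WT values were above 1 and spanned 0.31 on the log2 scale, while UPC2 spanned 2.34. The log2 ratio of UPC2 minus that of ECM22 was -0.09 at 3 h, 0.16 at 11 h, 1.21 at 19 h and 2.00 at 27 h in WT. It was 0.31 in ATP1-111 cells and -0.12 under NAR1 repression.

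SUT1 stayed near the same level through the WT time course, with ratios of 1.49, 1.39, 1.61 and 1.499. Its ratio was 1.12 in ATP1-111 cells and 1.72 under NAR1 repression. The WT values spanned 0.21 on the log2 scale, within the highest single-spot SD, and were already above 1 at 3 h. SUT1 had its highest ratio under NAR1 repression, and of the 8 genes only SUT1 and HES1 were above 1 there. SUT2, its paralogue, had a ratio of 0.853 at 27 h in WT and 0.723 under NAR1 repression.

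The esterification genes lay on opposite sides of 1 late in the WT time course. ARE1 had ratios of 1.01, 0.922, 1.39 and 1.45 at 3, 11, 19 and 27 h in WT cells, 1.18 in ATP1-111 cells and 0.553 under NAR1 repression. ARE2, which encodes the main sterol acyltransferase of aerobic cells, had ratios of 0.920, 0.910, 0.649 and 0.745 in WT cells, 0.851 in ATP1-111 cells and 0.688 under NAR1 repression. ARE2 was below 1 in all 6 conditions, and ARE1 was below 1 at 11 h and under NAR1 repression. The log2 ratio of ARE1 minus that of ARE2 was 0.14 and 0.02 at 3 and 11 h, 1.09 and 0.96 at 19 and 27 h, 0.47 in ATP1-111 cells and -0.32 under NAR1 repression.

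**Figure D1:**
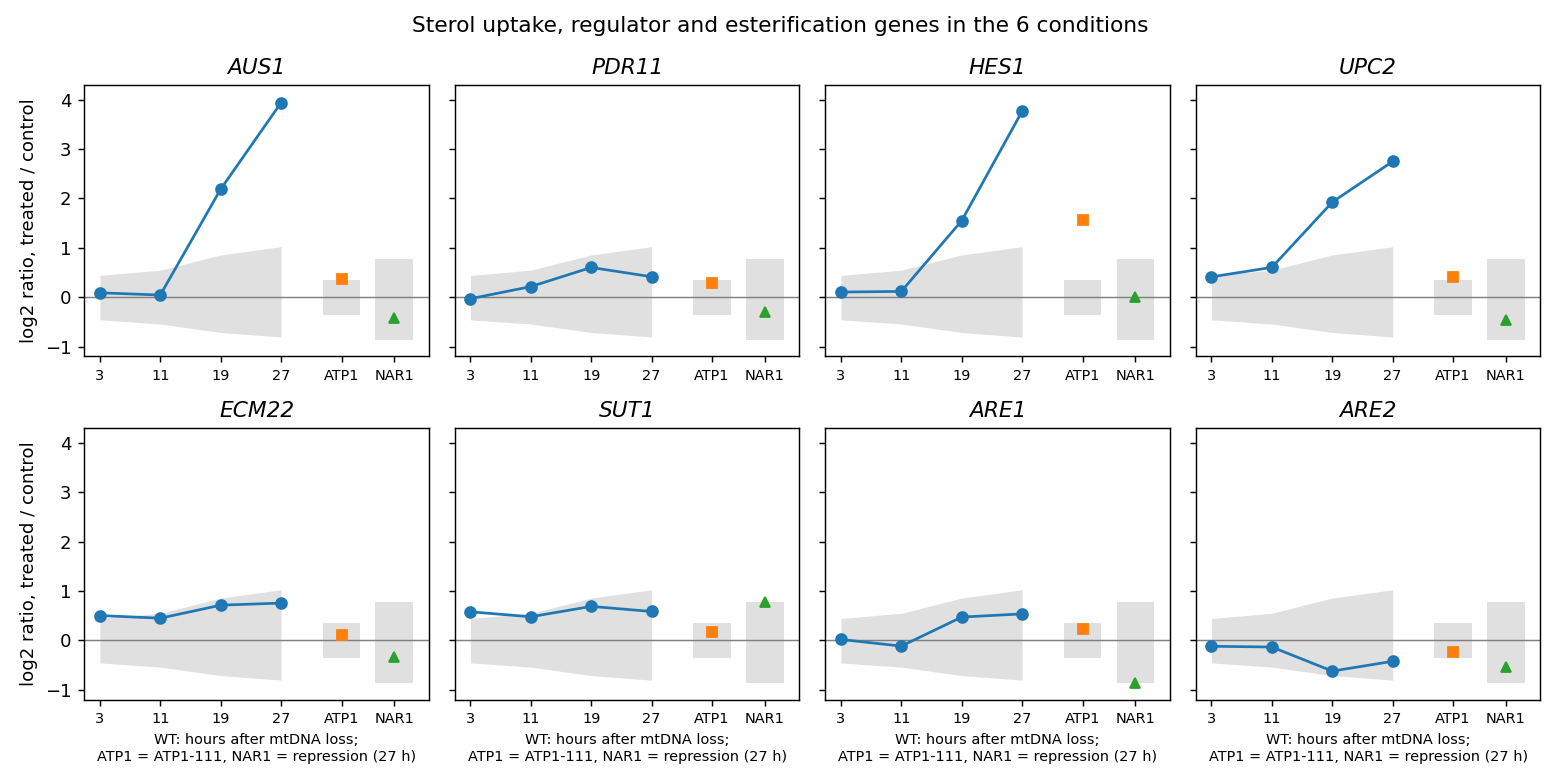
Log2 ratio of treated over control cells (vertical axis) for each of the 8 genes, with WT cells at 3, 11, 19 and 27 h after mtDNA loss as joined circles, ATP1-111 cells at 27 h as a square and NAR1 repression at 27 h as a triangle. The grey area spans the 5th to 95th percentile of all 6151 genes in that column. AUS1, HES1 and UPC2 lie far above it at 19 and 27 h (log2 3.94, 3.77 and 2.75 at 27 h). The other 5 genes stay between -0.85 and 0.79. Of these, SUT1 (0.58) and ECM22 (0.50) lie above the grey area at 3 h, and SUT1 (0.79) just above it under NAR1 repression.

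By size, 3 of the 8 genes (AUS1, HES1 and UPC2) were at least 2-fold higher at 19 h, where 3.8% of all genes were. The same 3 were at least 2-fold higher at 27 h, where 5.17% of all genes were. At 3 and 11 h 0 of 8 were at least 2-fold higher (0.341% and 1.22% of all genes). In ATP1-111 cells 1 of 8 was (HES1, against 0.65% of all genes), and under NAR1 repression 0 of 8 (2.19% of all genes). No member was at least 2-fold lower in any condition, where 0.927%, 0.634%, 1.79% and 2.83% of all genes were lower at 3, 11, 19 and 27 h, 0.358% in ATP1-111 cells and 3.72% under NAR1 repression. The members were picked with these values known, so nothing is read from the counts. The median log2 ratio of the 8 genes was 0.10, 0.17, 0.70 and 0.67 at 3, 11, 19 and 27 h, 0.26 in ATP1-111 cells and -0.38 under NAR1 repression. Over all genes the medians of the 6 columns lay between -0.06 and 0.03.

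A straight line through the 4 WT points gave a change over 24 h, on the log2 scale, of 4.11 (SE 0.64) for AUS1, 3.73 (SE 0.66) for HES1 and 2.50 (SE 0.31) for UPC2. The SE comes from limma's moderated scatter of the WT points about their lines. The line gave 0.64 (SE 0.22) for ARE1, 0.52 (SE 0.21) for PDR11, 0.31 (SE 0.16) for ECM22 and 0.07 (SE 0.16) for SUT1. With columns scaled to a common spread ECM22 and SUT1 changed sign, to -0.048 and -0.27. For ARE2 the fitted change was -0.42 (SE 0.21). The fitted values of AUS1 and HES1 move with the time points used, since both genes were flat to 11 h. Without the 27 h column the change was 3.15 for AUS1, 2.17 for HES1 and 0.95 for PDR11, and without the 3 h column it was 5.85 for AUS1, 5.48 for HES1 and 0.98 for ARE1. For ARE2 it was -0.76 without the 27 h column.

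The order of the 8 genes at 27 h in WT was AUS1, HES1, UPC2, ECM22, SUT1, ARE1, PDR11 and ARE2. The log2 ratios of ECM22, SUT1, ARE1 and PDR11 were 0.75, 0.58, 0.54 and 0.41, and each differed from the next by less than the highest single-spot SD of 0.239, as did AUS1 (3.94) from HES1 (3.77). UPC2 (2.75) lay further from both of its neighbours in that order, and so did ARE2 (-0.42) from PDR11.

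In ATP1-111 cells the log2 ratio at 27 h was below that of WT cells for 7 of the 8 genes. The share of all genes below WT was not counted, so nothing is read from this number. The median log2 ratio over all genes was -0.02 in ATP1-111 cells and -0.06 in WT at 27 h. The difference, ATP1-111 minus WT, was -3.56 for AUS1, -2.34 for UPC2 and -2.20 for HES1. Their treated-over-control ratios were thus 11.8-fold, 5.05-fold and 4.59-fold higher in WT. Each strain had its own control, so transcript levels themselves were not compared between strains. The difference was -0.65 for ECM22, -0.43 for SUT1, -0.30 for ARE1 and -0.12 for PDR11, the last within the single-spot SD. For ARE2 the difference was 0.19, also within it. Spread over all genes was smaller in the ATP1-111 column (median absolute deviation 0.114, against 0.279 in WT at 27 h). With columns scaled to a common spread the HES1 difference was 0.054 in place of -2.20, while AUS1 and UPC2 stayed lower in ATP1-111 cells at -2.25 and -1.30. That scaling also gave a higher value in ATP1-111 cells for PDR11 (0.21) and ARE1 (0.022) and a lower one for ARE2 (-0.12).

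Under NAR1 repression the log2 ratio was below that of WT cells 27 h after mtDNA loss for 7 of the 8 genes. Here too the share of all genes was not counted, and nothing is read from the number. The median log2 ratio over all genes was 0.03 under NAR1 repression and -0.06 in WT at 27 h. The difference, NAR1 repression minus WT, was -4.36 for AUS1, -3.76 for HES1, -3.22 for UPC2, -1.39 for ARE1, -1.10 for ECM22, -0.72 for PDR11 and -0.11 for ARE2. SUT1 was the exception at 0.20. AUS1, PDR11, UPC2, ECM22 and ARE1 stood above their control in WT at 27 h and below it under NAR1 repression.

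**Figure D2:**
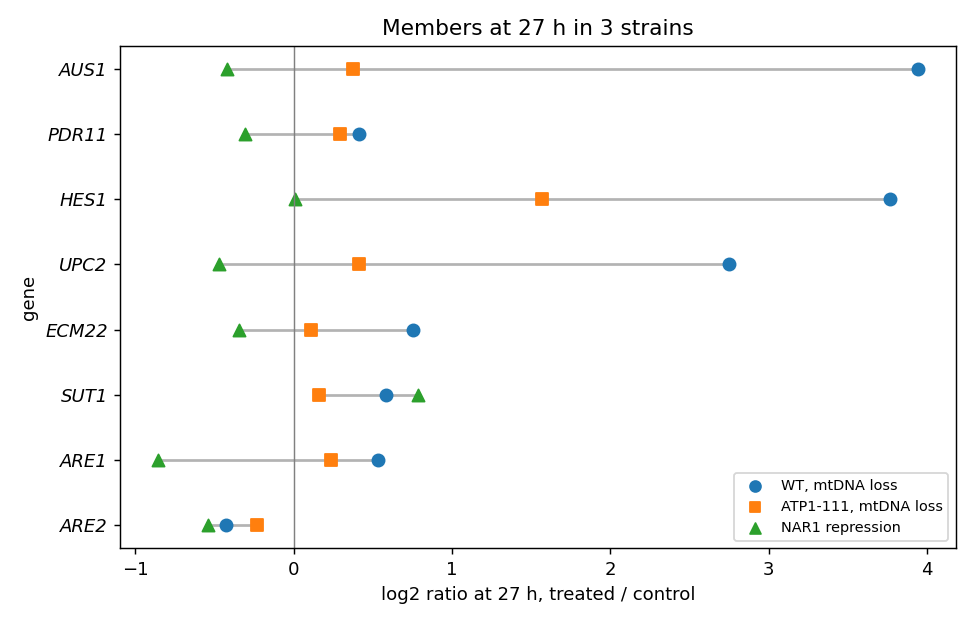
Log2 ratio of treated over control at 27 h (horizontal axis) for each of the 8 genes in WT cells after mtDNA loss (circles), ATP1-111 cells after mtDNA loss (squares) and cells after NAR1 repression (triangles), with a grey line over their range. The range is widest for AUS1, from -0.42 to 3.94, and ARE2 lies below 0 in all 3 strains.

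The 73 other sterol-related genes with complete values were taken from 6 lists and tested with limma across all 6151 genes, two-sided with Benjamini-Hochberg adjustment. The lists, like the members, were chosen with earlier results of these data known. Their counts and p-values are therefore not independent support. With time in WT cells 9 of them rose and 12 fell, where 4.63% of all genes rose and 2.62% fell. These tests rest on 2 residual degrees of freedom. Without the 19 h column 0 rose and 0 fell (16 and 19 at an unadjusted p under 0.05), without the 3 h column 2 and 0, without the 11 h column 8 and 7, and without the 27 h column 1 and 2. With columns scaled to a common spread limma called 0 and 0 (16 and 13 unadjusted), and ordinary least squares, without limma's prior, 0 and 0 (10 and 17 unadjusted).

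The sterol synthesis genes that passed were mostly lower with time in WT cells, while AUS1, HES1 and UPC2 were higher. In ergosterol synthesis from squalene 5 of 15 genes fell (ERG1, ERG7, ERG11, ERG28 and ERG5), 1 rose and 9 did not pass. Of all genes 2.62% fell and 4.63% rose. ERG5, the C-22 sterol desaturase, had a ratio of 0.725 at 3 h and 0.195 at 27 h (fitted log2 change -1.90, SE 0.22, adjusted p = 0.02 in limma). ERG11, the lanosterol demethylase and like Erg5 a haem protein, went from 0.988 to 0.278 (adjusted p = 0.0208), and ERG7, the lanosterol synthase, from 1.04 to 0.346 (adjusted p = 0.0211). The gene that rose was NCP1, the reductase that passes electrons to Erg11, at a ratio of 1.68 (adjusted p = 0.0407). The median log2 ratio of this list at 27 h was -0.30. Without the 3, 11, 19 and 27 h columns limma called 0, 3, 0 and 2 falling genes, and with scaled columns 0 (5, 5, 5, 6 and 5 at an unadjusted p under 0.05).

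In the mevalonate pathway 5 of 9 genes fell (ERG10, ERG13, HMG1, MVD1 and ERG20), where 2.62% of all genes fell. In limma 0 rose (0 also at an unadjusted p under 0.05) and 4 did not pass, where 4.63% of all genes rose. The median log2 ratio of this list was -1.10 at 27 h. ERG13, the HMG-CoA synthase, went from a ratio of 1.06 to 0.362 and HMG1, an HMG-CoA reductase, from 0.947 to 0.388 (limma adjusted p = 0.0213 and 0.0211). ERG10, the acetyl-CoA thiolase, reached 0.445 (adjusted p = 0.0434). Without the 3, 11, 19 and 27 h columns 0, 2, 0 and 0 of these genes were called as falling in limma, and with scaled columns 0 (5, 6, 7, 8 and 4 at an unadjusted p under 0.05).

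Of 7 genes for the anaerobic cell wall mannoproteins of the DAN and TIR families 4 rose (DAN1, TIR1, TIR2 and TIR4). Another 3 did not pass and 0 fell, where 4.63% of all genes rose and 2.62% fell. The median log2 ratio of the 7 genes was 3.04 at 27 h. TIR4 had ratios of 1.26 at 3 h and 38.2 at 27 h (limma adjusted p = 0.0323), DAN1 1.03 and 13.6 (adjusted p = 0.0488) and TIR1 0.885 and 12.5 (adjusted p = 0.0208). In these 4 genes the ratio was at most 1.61 up to 11 h and at least 8.04 from 19 h on. The count of rising genes was 1, 4, 0 and 0 in limma without the 3, 11, 19 and 27 h columns, and 0 with scaled columns (4, 6, 5, 6 and 4 at an unadjusted p under 0.05).

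Of 23 genes for sterol transfer, sterol export and ester turnover 1 rose, 0 fell and 22 did not pass. Over all genes 4.63% rose and 2.62% fell, so this list was near the share of all genes. The gene that rose was PRY1, a secreted sterol-binding protein that exports sterol acetates, with ratios of 0.692, 2.03, 8.01 and 11.9 (fitted log2 change 4.29, SE 0.40, limma adjusted p = 0.017). The other oxysterol-binding genes had ratios between 0.606 and 1.30 at 27 h, with SWH1 and OSH6 at 0.607 and 0.606 (adjusted p = 0.143 and 0.197). Among 8 other ABC transporters of the PDR subfamily, to which Aus1 and Pdr11 belong, SNQ2 and YOL075C rose, PDR12, a weak acid exporter, fell, and 5 did not pass. The drug exporter genes PDR5 and PDR15 had ratios of 5.23 and 4.29 at 27 h without passing (adjusted p = 0.0733 and 0.233), and both were already at 3.86 and 6.13 at 11 h, when AUS1 was at 1.03.

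Among 11 regulators of oxygen, haem and sterol responses HAP1, the haem-responsive activator, rose to a ratio of 2.42 (limma adjusted p = 0.0286). MOT3, a repressor of hypoxic genes, fell to 0.527 (limma adjusted p = 0.0206), while 9 did not pass. Over all genes 4.63% rose and 2.62% fell with time in WT cells. MGA2, an activator of the fatty acid desaturase gene OLE1, had a ratio of 2.10 (adjusted p = 0.0654). ROX1, the main repressor of hypoxic genes, had at 27 h a ratio of 0.584 in WT, 0.269 in ATP1-111 and 1.60 under NAR1 repression. It is named after its values were seen, as the single gene of this list at least 2-fold lower in ATP1-111 cells, and none of its 3 tests passed (adjusted p = 0.239, 0.11 and 0.083 in limma for the WT slope, the ATP1-111 difference and NAR1 repression).

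**Figure D3:**
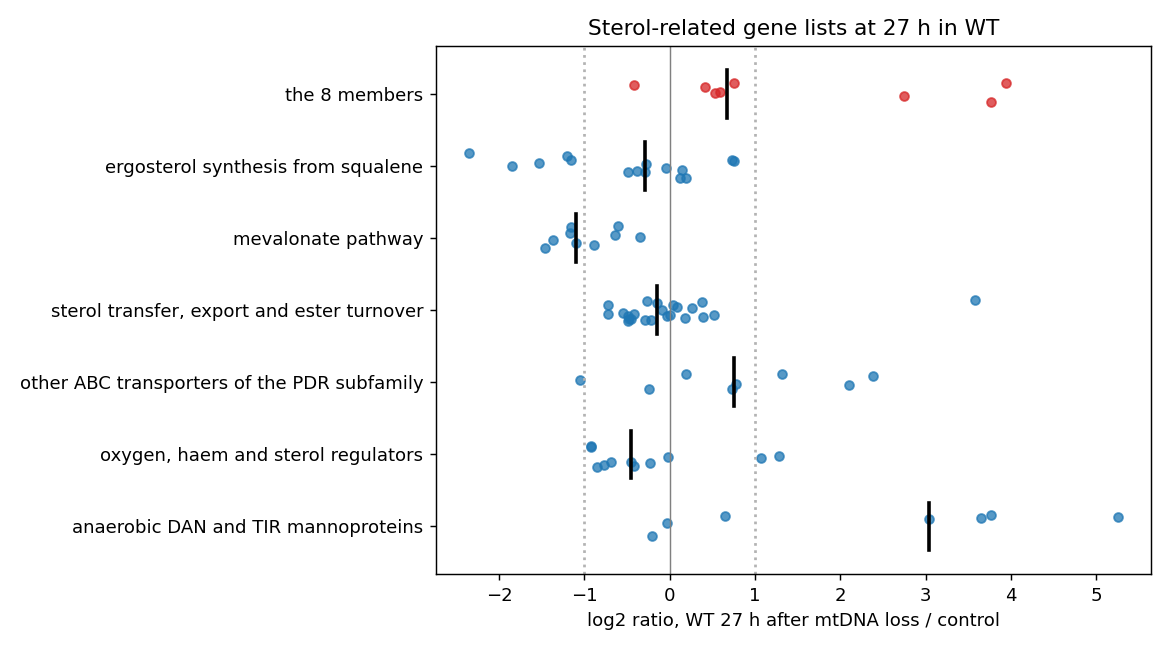
Log2 ratio in WT cells 27 h after mtDNA loss (horizontal axis) for the 8 genes (red) and the 73 other sterol-related genes (blue), 1 point per gene, with the list median as a black bar and 2-fold change as dotted lines. AUS1, HES1 and UPC2 lie between 2.75 and 3.94, the mevalonate genes all lie below 0, and 4 DAN and TIR genes lie between 3.04 and 5.26.

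ATP1-111 cells were compared with the fitted WT level at 27 h in the same fit, so this comparison shares the WT columns with the time course, and it takes the ATP1-111 column to vary as the WT columns do. Of the 73 other genes 13 were higher and 3 were lower in ATP1-111 cells (3.09% and 4.62% of all genes). Scaled columns gave 1 and 1, log2 hours 2 and 2, and ordinary least squares 0 and 0 (17 and 4 at an unadjusted p under 0.05). In ergosterol synthesis 4 of 15 were higher, which fell to 0 without the 19 h column and with scaled columns in limma (6 and 4 at an unadjusted p under 0.05). In the mevalonate pathway 5 of 9 were higher, and 0 without the 11, 19 or 27 h column or with scaled columns in limma (5, 6, 7 and 3 at an unadjusted p under 0.05). ERG5 had a ratio of 0.753 in ATP1-111 cells against 0.195 in WT (log2 difference 2.10, limma adjusted p = 0.0241) and ERG11 0.720 against 0.278 (1.54, adjusted p = 0.0304). The 3 lower genes were PRY1 (ratio 1.31 against 11.9, adjusted p = 0.0249), PDR10 and HAP1. Of the DAN and TIR genes 0 of 7 passed in limma (0 higher and 5 lower at an unadjusted p under 0.05). TIR4, TIR1 and DAN1 had ratios of 2.35, 3.13 and 3.39 in ATP1-111 cells, all at least 2-fold above their control, whereas AUS1 was at 1.30. Without the 3, 11, 19 and 27 h columns the counts of higher and lower genes were 17 and 8, 6 and 5, 0 and 0 (19 and 12 at an unadjusted p under 0.05), and 2 and 1.

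Under NAR1 repression 9 of the 73 genes were higher and 14 lower than in their control (13.3% and 11.2% of all genes). The column was taken to vary as the WT columns do. Scaled columns gave 2 and 2, and ordinary least squares 0 and 0 (7 and 15 at an unadjusted p under 0.05). In ergosterol synthesis 5 of 15 were lower (ERG26, ERG27, ERG28, ERG6 and ERG3) and 0 higher, with ERG6, the sterol C-24 methyltransferase, at a ratio of 0.404 and ERG3, the C-5 desaturase, at 0.495 (limma adjusted p = 0.00626 and 0.0119). ERG5, ERG7 and ERG11 had ratios of 1.45, 1.37 and 0.928 and did not pass (adjusted p = 0.067, 0.0861 and 0.682). Of sterol transfer genes 4 were higher (LAM1, PRY1, PRY2 and YEH1) and 5 lower (SWH1, OSH2, OSH6, LAM4 and LAM5). With scaled columns 1 ergosterol gene was lower, and 2 transfer genes were higher and 1 lower. PRY2, a paralogue of PRY1, had a ratio of 4.65 (adjusted p = 0.0012) and YEH1, a steryl ester hydrolase, 2.50 (adjusted p = 0.00637). The 7 DAN and TIR genes had ratios between 0.848 and 1.41, and 0 of 7 passed in limma (2 higher and 0 lower at an unadjusted p under 0.05). Without the 3, 11, 19 and 27 h columns the counts of higher and lower genes were 10 and 21, 7 and 11, 4 and 11, and 11 and 17. Leaving out a WT column cannot change the NAR1 level itself, only the spread it is tested against.

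On its chromosome AUS1 lies next to TIR2, which in turn lies next to TIR4, by the gene order of assembly R64. In WT cells TIR2 had ratios of 0.877, 1.45, 8.04 and 8.23, and it had 2.63 in ATP1-111 cells and 0.939 under NAR1 repression. In WT cells all 3 genes of this run had ratios above 4 from 19 h on. The next genes with a row on either side of this run, YOR008C-A beyond TIR4 and YOR012W beyond AUS1, had ratios between 0.576 and 1.11 in all 6 conditions. PDR11 has TIR3 as the second gene with a row on one side. TIR3 had ratios of 0.300 at 3 h and 0.863 at 27 h, so neither PDR11 nor TIR3 was 2-fold higher in any condition. The neighbours on each side of UPC2 (TCP1 and AHA1) had ratios of 0.866 and 0.612 at 27 h, and those of HES1 (DFR1 and YOR238W) 0.921 and 0.954. These neighbours were looked up after the values were seen.

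**Figure D4:**
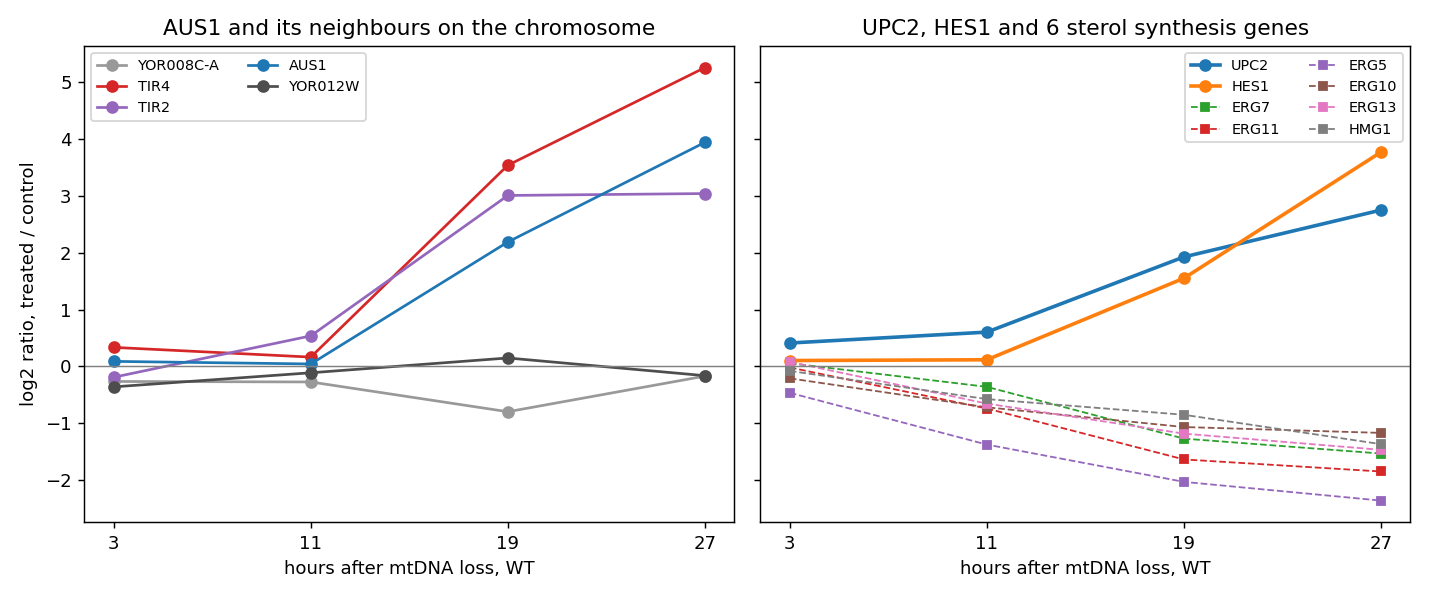
Log2 ratio of treated over control (vertical axis) in WT cells by hours after mtDNA loss (horizontal axis), for AUS1 and 4 genes beside it on the chromosome (left) and for UPC2, HES1 and 6 sterol synthesis genes (right). TIR4, AUS1 and TIR2 reach 5.26, 3.94 and 3.04 at 27 h while YOR008C-A and YOR012W stay below 0.2, and the 6 synthesis genes end between -2.36 and -1.17.

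The genes whose 6 log2 ratios were nearest to those of AUS1, by root mean square difference over the 6 conditions, were YHK8, UPC2, HES1 and HXT2 (0.53, 0.56, 0.59 and 0.66). YHK8, a presumed drug transporter gene, had ratios of 4.99 at 19 h and 8.03 at 27 h in WT, 0.997 in ATP1-111 cells and 1.27 under NAR1 repression. For HES1 the nearest were YSR3, AUS1, NQM1 and TIR2 (0.56, 0.59, 0.70 and 0.70), with YSR3, a sphingoid base phosphate phosphatase gene, at 6.03 in WT at 27 h and 2.55 in ATP1-111 cells. For UPC2 they were HXT5, PRB1, FMP23 and FET4 (0.30, 0.32, 0.34 and 0.35). FET4, a low-affinity iron transporter gene, had ratios of 5.63 in WT at 27 h, 1.24 in ATP1-111 cells and 0.7 under NAR1 repression.

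For PDR11 the nearest genes were PXP1, YHR210C, NNK1 and PTC6 (0.08 to 0.12), but 368 genes lay within 0.25 of it, against 0 for each of AUS1, HES1 and UPC2. A fixed distance takes in more genes where the ratios are near 1, so this contrast follows their size. Counted by a fixed high Pearson correlation instead, 78 genes were like PDR11, 77 like AUS1, 17 like HES1 and 91 like UPC2. By Pearson correlation over the same 6 conditions the 4 nearest genes were others for AUS1, HES1 and PDR11, and for UPC2 1 of 4, HXT5, was shared. These likenesses rest on 6 averaged columns, of which 4 are a time course of a single strain, and they are given as a description.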

How the data were processed

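Per the labels, 2-colour arrays compared treated with control RNA in 6 conditions, each its own group. The authors deposited 1 linear ratio per row and condition (6259 rows), averaged over dye-swapped arrays. Normalization, background correction and kind of average: not given in the sources used here, nor whether WT time points shared a control RNA. Direction follows the titles and the NAR1 row. Spot brightness is unknown.

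Log2 values were computed, 28 control rows left out and 26 spots of 13 genes averaged. Symbols came from RefSeq R64 locus tags (5705 matched, 500 kept their systematic name). The files name no genome build, so no coordinates are given. The 6151 genes with 6 values entered limma 3.58.1 (R 4.3.3) with terms for the WT slope in hours, the level of WT at 27 h, that of ATP1-111 and that of NAR1 repression. Residual spread had 2 degrees of freedom, from the WT points about their line, and 3.35 prior ones, so a curved time course counts as noise. P-values (two-sided) were adjusted by Benjamini-Hochberg over the whole table, with a threshold of 0.05.

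The members and lists were chosen with earlier results of these data known. Named genes are the 8 members, NAR1, the 3 genes of each other list with the largest absolute log2 ratio in WT at 27 h, and the 4 genes nearest in pattern to AUS1, HES1, PDR11 and UPC2. Genes behind counts, paralogues and neighbours were named after their values were seen. DAN2 lacked the 3 h value and was not tested.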

Additional observations from a re-analysis of the deposited data

Results flagged for a closer look

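A difference between strains under the same contrast, mtDNA loss at 27 h, passed limma's test of the difference itself for 10 of the 18 genes named from the 6 lists and for NAR1. The same test called 3.09% of the whole table as higher in ATP1-111 cells and 4.62% as lower. The 18 genes were named for their large absolute log2 ratio in WT at 27 h, whether above or below 0. That ratio is one side of this difference, so nothing is read from the count. On the log2 scale, ATP1-111 minus the fitted WT level was 2.10 for ERG5, 1.54 for ERG11, 1.27 for ERG7, 1.10 for ERG13, 1.05 for ERG10 and 0.90 for HMG1, all sterol synthesis genes. It was 1.01 for the repressor gene MOT3 and 0.77 for the oxysterol-binding gene OSH6. It was -3.52 for PRY1, -0.89 for HAP1 and -1.17 for NAR1. Adjusted p-values in limma ran from 0.0241 to 0.049. ATP1-111 is a single averaged column, and the WT level was fitted from the 4 averaged WT columns. The members were not tested, since their values were known when they were chosen. No group had enough samples to look for a sample apart from the others.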

How the results depend on the processing

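Centring columns moved no count or value of the members by more than the highest single-spot SD. Scaling columns to a common spread turned the ATP1-111 minus WT difference of HES1 to 0.054 and gave -2.25 for AUS1, 0.21 for PDR11, -1.30 for UPC2, -0.38 for ECM22, -0.16 for SUT1, 0.022 for ARE1 and -0.12 for ARE2. It gave NAR1 minus WT of -3.31, -2.85, -2.46 and -1.11 for AUS1, HES1, UPC2 and ARE1, and 24 h changes of 3.11, 2.78, 1.66, -0.048 and -0.27 for AUS1, HES1, UPC2, ECM22 and SUT1. The scaling itself enlarges the narrow ATP1-111 column. Against the fitted WT level, AUS1 and HES1 differed by -3.24 and -1.68 in ATP1-111 cells and by -4.04 and -3.24 under NAR1 repression. With log2 hours the changes were 3.46, 3.07 and 2.19 for AUS1, HES1 and UPC2. Leaving out each WT column gave 3.15 to 5.85 for AUS1, 2.17 to 5.48 for HES1, 2.27 to 3.22 for UPC2, 0.30 to 0.95 for PDR11, 0.54 to 0.98 for ARE1 and -0.76 to -0.32 for ARE2. At 1.5-fold 1 member was higher at 11 h, and 6 were higher and 1 lower at 19 h. Under NAR1 repression 1 was higher and 1 lower at that threshold. At 3-fold 2 were higher at 19 h and 0 in ATP1-111 cells. The shares of all genes past 1.5-fold and 3-fold were not counted, so nothing is read from these counts.

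Of the 73 other genes, ordinary least squares called 0 in each direction of every comparison (10 and 17 for the WT slope, 17 and 4 for ATP1-111 minus WT and 7 and 15 for NAR1 at an unadjusted p under 0.05). Scaled columns called 0 and 0 for the slope (16 and 13 unadjusted), 1 and 1 for ATP1-111 minus WT and 2 and 2 for NAR1 repression. In both centred and scaled columns all 21, 16 and 23 genes called in these 3 comparisons had the same sign as in the deposited columns. Centring moved the columns too little to turn a called gene (column medians -0.06 to 0.03). Scaling cannot turn the sign of the NAR1 level either, which rests on a single column. Only the scaled slope and ATP1-111 comparisons could have turned a sign. Log2 hours left 2 genes higher in ATP1-111 cells. Leaving out each WT column gave 0 to 8 rising and 0 to 7 falling genes, 0 to 17 higher and 0 to 8 lower in ATP1-111 cells, and 4 to 11 higher and 11 to 21 lower under NAR1 repression. For NAR1 repression this changes only the spread taken from the WT columns, not the level. The cause of the losses of called genes under these settings was not tested. The fits that leave a WT column out also rest on fewer columns. Pearson correlation shared 0 of 4 nearest genes for AUS1, HES1 and PDR11 and 1 for UPC2. No paired analysis was possible because each condition is a single averaged column. Spot brightness is unknown, so weak spots cannot be told from bright ones.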
